A study of Mus musculus with 5 samples.

Results

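The cell-cycle genes described here are the 94 genes, of 23771 in the deposited gene table, that carry the cell-cycle flag of that table, and their RNA was compared in 4T1 cancer cells growing in lungs that had or had not been exposed to tumor-secreted factors. 4T1 is a mouse mammary carcinoma line, and the injected cells expressed CD90.1, a Thy1 variant that serves as a reporter. Female BALB/c mice, 6 weeks old at the start, were injected intravenously with tumor-secreted factors (TSF) or control medium (CM), 3 times per week for 3 weeks. TSF is medium in which pieces of 4T1 mammary tumors had been incubated (the protocol in the labels reads 4T1 or EMT6.5), and CM is the same medium kept without tumor. Both groups then received 25000 CD90.1-expressing 4T1 cells intravenously, and their lungs were taken at day 16, at an age of 11 weeks. The lungs of 3 mice were pooled into 1 single-cell library per group, so the library is the unit, there is no replicate, and no test between groups was made. The CM library held 29 cancer cells and the TSF library 139. Thus, differences below describe these 2 libraries, and variation between mice is unknown.

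A dividing cell copies its genome in S phase and separates the copies in mitosis. Replication origins are licensed in G1 by loading of the MCM2-7 helicase, fire under the control of cyclin-dependent kinases, and are then copied by DNA polymerases that need a supply of deoxynucleotides. The genes of G1 to S progression are classical targets of the E2F factors, whereas genes used in G2 and mitosis often carry a CHR element, bound by the DREAM and MuvB complexes, and CCAAT boxes, bound by NF-Y. By textbook role, 27 members act in DNA replication and 34 in mitosis. Another 4 act in G1 to S control, 8 are repair or proliferation genes, and 21 had no role in the lists used.

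The cancer cells carried carcinoma markers in both libraries. Krt8, an epithelial keratin, had a UMI (1 counted RNA molecule) in 29 of 29 CM cells (100%) and 137 of 139 TSF cells (98.6%), and Krt18 in 28 of 29 CM cells (96.6%) and 138 of 139 TSF cells (99.3%). Epcam was detected in 8 of 29 CM cells (27.6%) and 95 of 139 TSF cells (68.3%), and the CD90.1 reporter in 2 of 29 CM cells (6.90%) and 48 of 139 TSF cells (34.5%). Cldn4, another carcinoma marker, was seen in only 3 of 29 CM cells and 25 of 139 TSF cells. Of the leukocyte markers, 7 of 8 were at 0 in CM and 2 of 8 in TSF, with summed levels of 0.00958 and 1.04 CP10k. The highest in TSF were S100a9 at 0.685 CP10k, in 4 of 139 cells, and S100a8 at 0.300 CP10k, in 2 of 139 cells. Endothelial markers summed to 0.0588 CP10k in CM and 0.163 CP10k in TSF, and lung epithelial markers to 0.113 and 0.0658 CP10k. Fibroblast markers were not absent. Pdgfra had a UMI in 13 of 29 CM cells (44.8%) and 63 of 139 TSF cells (45.3%). Dcn had one in 2 of 29 CM cells and 16 of 139 TSF cells, and Col1a1 in 0 and 6. The source of this RNA was not tested. CP10k is the number of UMIs of a gene per 10000 UMIs of a cell, averaged over all cancer cells of a library. The median depth was 27679 UMIs per cancer cell in CM and 26615 in TSF, but 8 of 29 CM cells (27.6%) and 14 of 139 TSF cells (10.1%) had fewer than 10000 UMIs. The shallowest CM cancer cell had 973 UMIs, so a single UMI in it adds 0.354 CP10k to a CM mean. Values with 1 such UMI taken off the CM mean, wherever that mean is high enough to hold it, are given for lists and for some members. They bound the weight of that cell only for genes of which it held no more than 1 UMI. The cancer cells fell into 2 clusters that the authors built without cell-cycle genes, and 1 of them held 23 of 29 CM cells (79.3%, exact 95% interval 60.3 to 92.0%) against 54 of 139 TSF cells (38.8%, interval 30.7 to 47.5%). A summed list of 7 immediate-early genes was at 104 CP10k in CM and 37.6 CP10k in TSF. The 2 libraries shared 31 cell barcodes, none of them between cancer cells. The part of depth, cluster and immediate-early RNA in the values below was not tested.

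Cell-cycle genes were detected in cancer cells of both libraries, at medians over members of 37.9% of CM and 39.2% of TSF cells. Of the 94 members, 92 had a UMI in 10% or more of the cancer cells in CM or in TSF and could be compared, the exceptions being Ccne2 (6.90% of CM and 7.91% of TSF cells) and Psrc1 (3.45% of CM and 5.04% of TSF cells). The comparison is the log2 ratio of mean CP10k, TSF over CM, after adding 0.1 to both means, which understates differences of low genes. On that scale 42 members were above 0 and 50 below, with a median of -0.048, whereas the median of all 10201 genes compared in the same way was -0.13 and 40.3% of them were above 0. At least 1.5-fold lower in TSF were 14 members, and 17.3% of all genes compared were past that limit. At least 1.5-fold higher were 7 members, against 7.33% of all genes. Both counts are near the background, which among the 9255 genes with mean levels in the range of the members was 18.5% lower and 7.23% higher. The lower members closest to the limit were Brip1 (-0.61) inside and Wdr76 (-0.53) outside, and the higher ones were Tpx2 (0.64) inside and Tyms (0.47) outside. By detection, 54 members had a UMI in a larger share of TSF cells and 38 in a smaller share, with a median difference of 1.80 percentage points, while 49.1% of all genes were higher by share.

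With CM means as deposited, the members differed by phase. Of the 27 DNA replication members, 19 were lower and 8 higher in TSF by level, 8 of them at least 1.5-fold lower and 1 at least 1.5-fold higher, and the median log2 ratio was -0.23. Of the 34 mitosis members, 14 were lower and 20 higher, 1 at least 1.5-fold lower and 4 at least 1.5-fold higher, with a median of 0.057. By share of cells with a UMI, 16 replication members were lower and 11 higher, with a median difference of -5.66 percentage points, and 10 mitosis members were lower and 24 higher, with a median difference of 5.00 points. Added up, replication members held 17.1 CP10k in CM and 12.7 CP10k in TSF, a ratio of 0.747, while mitosis members held 20.9 and 21.7 CP10k, a ratio of 1.04. The median log2 ratio of replication members less that of mitosis members was -0.29. By level, this difference was not kept when 1 UMI of the shallowest CM cell was taken off each CM mean that could hold it. This covers more genes than the cell held, because 4219 of the 10201 genes had such a mean and the cell held UMIs of 550. For a single gene it is no upper limit, because the cell held 973 UMIs and so more than 1 UMI of some genes. With 1 UMI taken off, 8 of 27 replication members were below 0 and 3 past 1.5-fold lower, and 6 of 34 mitosis members were below 0 and 0 past it. The medians were 0.42 and 0.39, a difference of 0.030. Shares of cells do not depend on that weight. With CM means as deposited, the difference was smaller, -0.15, over all 71 replication and 126 mitosis genes of the lists, flagged or not, where the 92 mitosis genes without the flag had a median of -0.12. Without the flag, 44 replication genes had a median of -0.29, against -0.23 for the flagged ones. In the gene sets deposited with the data, the median was -0.16 over KEGG DNA replication, -0.13 over Reactome M phase, -0.17 over Hallmark E2F targets and -0.19 over Hallmark G2M checkpoint, near that of all genes.

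**Figure D1:**
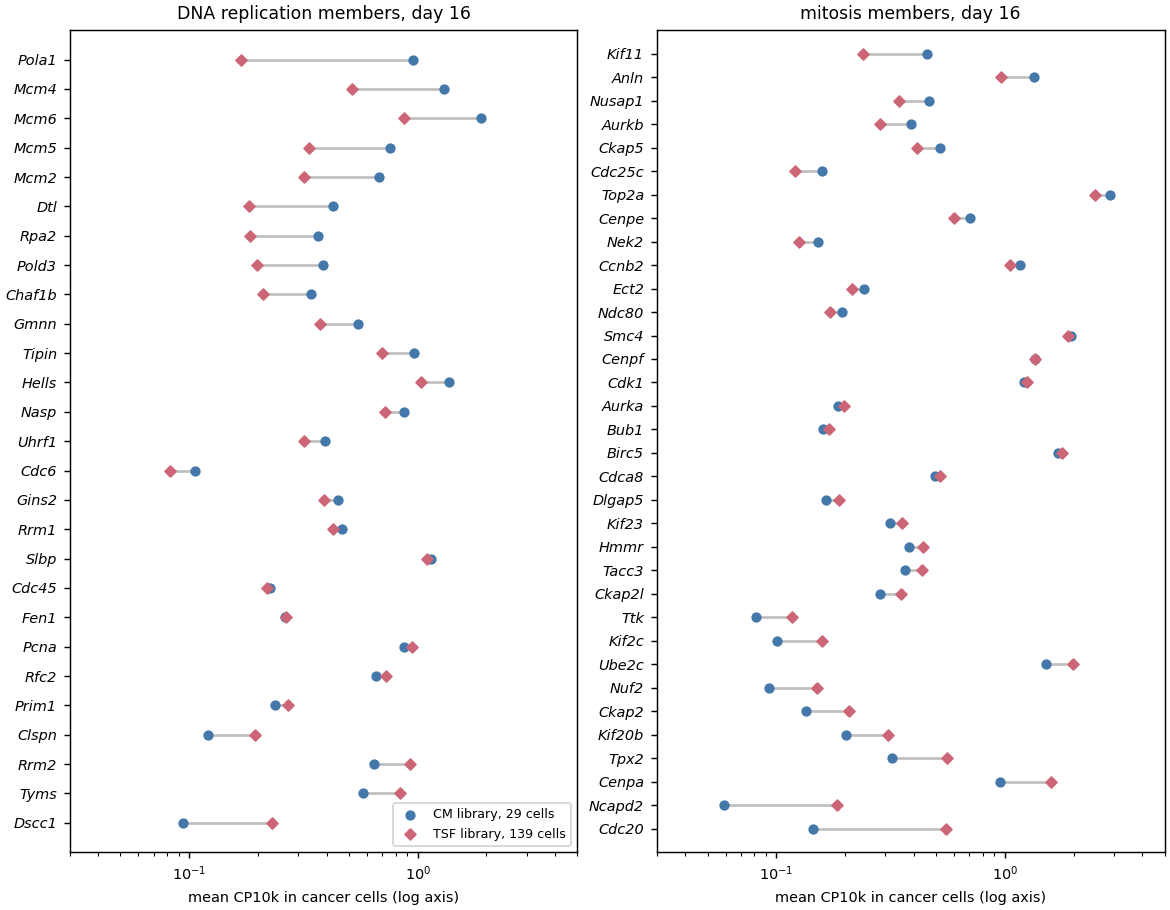
Mean CP10k of the 27 DNA replication members (left) and the 34 mitosis members (right) in cancer cells of the CM library (blue circles) and the TSF library (red diamonds), on a log axis and ordered by log2 ratio. Most replication genes have the red mark to the left, down to Pola1 at 0.950 and 0.168 CP10k in CM and TSF, with CM means as deposited, and most mitosis genes to the right, up to Cdc20 at 0.145 and 0.550 CP10k.

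By level, origin licensing genes were lower in TSF. All 6 flagged members and 14 of 15 genes of the list were below 0, with medians of -0.93 and -0.90. Mcm4, a subunit of the helicase core, was at 1.30 CP10k in CM and 0.518 CP10k in TSF (log2 ratio -1.18) and had a UMI in 21 of 29 CM cells (72.4%, interval 52.8 to 87.3%) and 68 of 139 TSF cells (48.9%, interval 40.4 to 57.5%). Mcm6 was at 1.89 CP10k in CM and 0.870 CP10k in TSF (log2 ratio -1.04) and was detected in 22 of 29 CM cells (75.9%, interval 56.5 to 89.7%) and 87 of 139 TSF cells (62.6%, interval 54.0 to 70.6%). Mcm5 measured 0.754 CP10k in CM and 0.336 CP10k in TSF (log2 ratio -0.97), in 17 of 29 CM cells (58.6%, interval 38.9 to 76.5%) and 51 of 139 TSF cells (36.7%, interval 28.7 to 45.3%). Mcm2 measured 0.679 CP10k in CM and 0.319 CP10k in TSF (log2 ratio -0.90), in 15 of 29 CM cells (51.7%, interval 32.5 to 70.6%) and 63 of 139 TSF cells (45.3%, interval 36.9 to 54.0%). In each of the 4, the TSF library was lower by level and by share, and the intervals of the shares overlapped. The remaining helicase subunits, Mcm3 and Mcm7, carry no flag, and they pointed the same way at 0.962 and 0.503 CP10k for Mcm3 (log2 ratio -0.82) and 0.793 and 0.615 CP10k for Mcm7 (log2 ratio -0.32), CM first. Summed over the 6 subunits, helicase RNA was 6.38 CP10k in CM and 3.16 CP10k in TSF, a ratio of 0.495. All 6 stayed below 0 when ribosomal protein genes were left out of the scaling and when ratios were centred on the median of all genes, but with 1 UMI of the shallowest CM cell taken off, 5 of 6 did and Mcm7 turned to 0.41.

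Factors that load or restrain the helicase followed in level. Cdt1, the unflagged loader, was at 0.857 CP10k in CM and 0.321 CP10k in TSF (log2 ratio -1.19). Gmnn encodes geminin, the inhibitor of Cdt1, and was at 0.550 CP10k in CM and 0.372 CP10k in TSF (log2 ratio -0.46), with nearly the same share of cells in both libraries (44.8% of CM and 45.3% of TSF cells). Cdc6, which acts with Cdt1, measured 0.106 CP10k in CM and 0.0826 CP10k in TSF (log2 ratio -0.17), in 4 of 29 CM cells (13.8%) and 20 of 139 TSF cells (14.4%). Among the origin recognition complex genes, none of them flagged, Orc1 was at 0.124 CP10k in CM and 0.0170 CP10k in TSF and Orc2 at 0.531 CP10k in CM and 0.196 CP10k in TSF. Orc5 was the gene of the list above 0, at 0.0535 CP10k in CM and 0.0812 CP10k in TSF. The 14 of 15 became 13 of 15 under either other scaling, where Orc3 (log2 ratio -0.050) changed sign. With 1 UMI of the shallowest CM cell taken off, 10 of 15 were below 0, and besides Mcm7, Gmnn turned to 0.67, Orc2 to 0.10 and Orc4 to 0.16.

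At the fork, Pola1, the catalytic subunit of the DNA polymerase alpha that starts each new strand, had the lowest log2 ratio of the 92 members. It was at 0.950 CP10k in CM and 0.168 CP10k in TSF (log2 ratio -1.97). Pola1 had a UMI in 19 of 29 CM cells (65.5%, interval 45.7 to 82.1%) and 43 of 139 TSF cells (30.9%, interval 23.4 to 39.3%), and these intervals did not overlap. Cells with a Pola1 UMI held 1.45 CP10k in CM and 0.543 CP10k in TSF on average, so share and level per positive cell were both lower in TSF. Its accessory subunit Pola2, which carries no flag, was at 0.788 CP10k in CM and 0.198 CP10k in TSF (log2 ratio -1.58), in 19 of 29 CM cells (65.5%, interval 45.7 to 82.1%) and 45 of 139 TSF cells (32.4%, interval 24.7 to 40.8%). The primase subunits of the same complex did not share this: Prim1 was at 0.237 CP10k in CM and 0.272 CP10k in TSF (log2 ratio 0.14), in 7 of 29 CM cells (24.1%) and 49 of 139 TSF cells (35.3%), and the unflagged Prim2 at 0.110 CP10k in CM and 0.113 CP10k in TSF (log2 ratio 0.019).

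**Figure D2:**
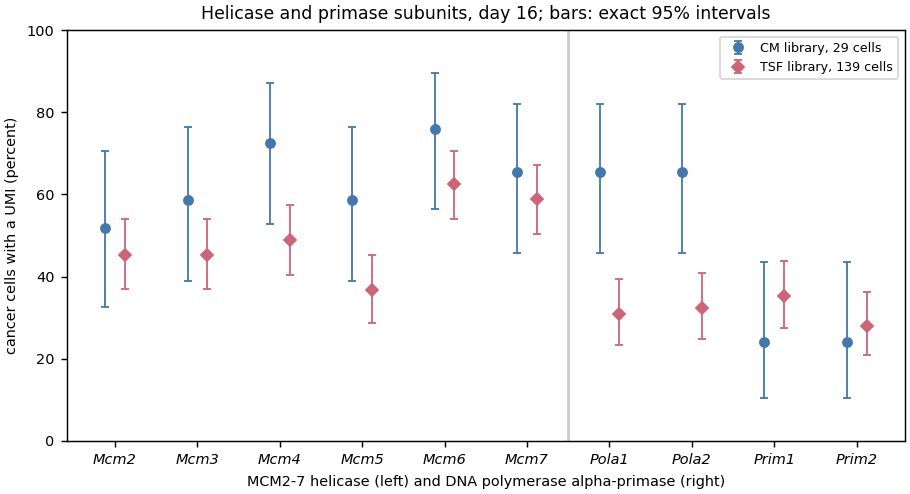
Percent of cancer cells with a UMI for the 6 subunits of the MCM2-7 helicase and the 4 of DNA polymerase alpha-primase, in CM (blue circles, 29 cells) and TSF (red diamonds, 139 cells), with exact 95% intervals that cover counting error only. All helicase subunits are lower in TSF with overlapping intervals, Pola1 and Pola2 lie apart at 65.5% in CM and 30.9% and 32.4% in TSF, and both primase subunits are higher in TSF.

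The 13 fork members, Pola1 and Prim1 included, were spread on both sides of 0, with 7 below and 6 above. Dtl, a substrate receptor of the ligase that destroys Cdt1 at the fork, was at 0.425 CP10k in CM and 0.183 CP10k in TSF (log2 ratio -0.89), in 11 of 29 CM cells (37.9%) and 42 of 139 TSF cells (30.2%). Rpa2, of the single-strand binding complex, was at 0.365 CP10k in CM and 0.185 CP10k in TSF (log2 ratio -0.70). Pold3, a subunit of DNA polymerase delta, was at 0.384 CP10k in CM and 0.198 CP10k in TSF (log2 ratio -0.70). These 3, like Pola1, were past 1.5-fold lower. In contrast, the sliding clamp gene Pcna was at 0.871 CP10k in CM and 0.942 CP10k in TSF (log2 ratio 0.10) and its clamp loader subunit Rfc2 at 0.655 CP10k in CM and 0.729 CP10k in TSF (log2 ratio 0.13). Dscc1, of an alternative clamp loader, was the replication member past 1.5-fold higher, at 0.0942 CP10k in CM and 0.231 CP10k in TSF (log2 ratio 0.77), in 4 of 29 CM cells (13.8%, interval 3.89 to 31.7%) and 36 of 139 TSF cells (25.9%, interval 18.8 to 34.0%). Clspn (claspin) was at 0.121 CP10k in CM and 0.194 CP10k in TSF and Fen1, the flap endonuclease, at 0.263 CP10k in CM and 0.264 CP10k in TSF. Tipin, Gins2 and Cdc45 had log2 ratios of -0.41, -0.16 and -0.030, and Cdc45 changed sign under either other scaling. With 1 UMI of the shallowest CM cell taken off, 2 of 13 were below 0, and Dtl, Rpa2, Pold3, Tipin and Gins2 turned positive. Of the unflagged fork genes, Atad5 was at 0.824 CP10k in CM and 0.147 CP10k in TSF and Mcm10 at 0.284 CP10k in CM and 0.0519 CP10k in TSF. Others were higher in TSF, such as Rfc1 (log2 ratio 0.52) and Dbf4 (log2 ratio 0.48). Over all 41 fork genes compared, flagged or not, 24 were below 0 and 17 above, with a median of -0.12. Of these 41, 22 had a UMI in a larger share of TSF cells.

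Nucleotide supply genes were mostly higher in TSF, unlike licensing genes. Tyms, thymidylate synthase, was at 0.575 CP10k in CM and 0.835 CP10k in TSF (log2 ratio 0.47), in 14 of 29 CM cells (48.3%, interval 29.4 to 67.5%) and 81 of 139 TSF cells (58.3%, interval 49.6 to 66.6%). Rrm2, the regulated subunit of ribonucleotide reductase, was at 0.641 CP10k in CM and 0.926 CP10k in TSF (log2 ratio 0.47), although the share of cells was 44.8% of CM and 42.4% of TSF cells. Its partner Rrm1 was at 0.466 CP10k in CM and 0.425 CP10k in TSF (log2 ratio -0.11), in 19 of 29 CM cells (65.5%, interval 45.7 to 82.1%) and 66 of 139 TSF cells (47.5%, interval 39.0 to 56.1%), and turned positive when ratios were centred on all genes. Among 4 unflagged genes of this role, Tk1 (thymidine kinase) was at 0.540 CP10k in CM and 0.998 CP10k in TSF (log2 ratio 0.78) and Dut at 2.14 CP10k in CM and 2.93 CP10k in TSF (log2 ratio 0.44). Dck was lower, at 0.156 CP10k in CM and 0.0911 CP10k in TSF (log2 ratio -0.42). Over the 7 genes the median was 0.44 and the summed level 4.70 CP10k in CM against 6.44 in TSF. With 1 UMI of the shallowest CM cell taken off, the 3 flagged members were at 1.55 (Tyms), 1.41 (Rrm2) and 1.31 (Rrm1).

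Genes that copy chromatin behind the fork were lower by level in all 5 flagged members, none past 1.5-fold. In share of cells, 3 were lower and 2 higher in TSF. The higher ones were Nasp (62.1% of CM and 67.6% of TSF cells) and Slbp (75.9% of CM and 77.7% of TSF cells). Chaf1b, of the histone chaperone CAF-1, was at 0.341 CP10k in CM and 0.211 CP10k in TSF (log2 ratio -0.51), in 13 of 29 CM cells (44.8%) and 43 of 139 TSF cells (30.9%). Hells, a chromatin remodeler needed for DNA methylation, was at 1.37 CP10k in CM and 1.04 CP10k in TSF (log2 ratio -0.37), and its share of cells was lower as well, at 69.0% of CM and 49.6% of TSF cells. Uhrf1, which recruits the maintenance methyltransferase, was at 0.393 CP10k in CM and 0.320 CP10k in TSF (log2 ratio -0.23). That methyltransferase, Dnmt1, carries no flag and was at 1.75 CP10k in CM and 0.818 CP10k in TSF (log2 ratio -1.01). Nasp, a histone chaperone, had a log2 ratio of -0.24. Slbp, which binds the stem-loop of histone mRNAs, was at 1.14 CP10k in CM and 1.10 CP10k in TSF (log2 ratio -0.046) and changed sign under either other scaling. With 1 UMI of the shallowest CM cell taken off, 4 of the 5 turned positive, Hells to 0.032, Nasp to 0.42, and Slbp to 0.44, the last of the 4 being Uhrf1.

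The promoters of 3 replication members past 1.5-fold lower are shown for their E2F letters, which were more frequent in replication than in mitosis members. Each line gives 200 bases before the RefSeq start in GRCm38.p6, 5' to 3' on the strand of the gene. Capitals mark an E2F motif (TTTCCCGC, TTTCGCGC, TTTGCCGC or TTTGGCGC), a CHR motif (TTTGAA or TTCGAA) or a CCAAT box, searched on both strands.
Pola1, chrX:93632156-93632355, minus strand: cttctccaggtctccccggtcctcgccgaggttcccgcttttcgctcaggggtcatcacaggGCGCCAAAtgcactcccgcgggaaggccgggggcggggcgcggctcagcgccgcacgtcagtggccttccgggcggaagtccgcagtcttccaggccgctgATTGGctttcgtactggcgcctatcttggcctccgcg
Mcm5, chr8:75109309-75109508, plus strand: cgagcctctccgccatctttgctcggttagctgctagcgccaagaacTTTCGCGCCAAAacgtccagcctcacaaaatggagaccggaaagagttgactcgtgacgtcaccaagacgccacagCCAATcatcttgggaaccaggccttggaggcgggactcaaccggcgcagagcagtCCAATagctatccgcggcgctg
Mcm6, chr1:128359706-128359905, minus strand: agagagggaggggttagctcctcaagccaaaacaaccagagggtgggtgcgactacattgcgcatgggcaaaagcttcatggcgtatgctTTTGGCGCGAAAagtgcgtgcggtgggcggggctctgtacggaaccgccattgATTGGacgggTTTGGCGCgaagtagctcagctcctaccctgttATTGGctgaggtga
In the Pola1 window, the E2F letters are read on the opposite strand and a CCAAT box follows closer to the start. In Mcm5 and Mcm6 an E2F motif overlaps a second one on the other strand, and Mcm6 has another E2F motif nearer to its start. Mcm5 and Mcm6 each also hold 2 CCAAT boxes. Of the other replication members past 1.5-fold lower, Dtl holds an E2F motif in these 200 bases, Mcm2, Rpa2 and Pold3 hold none, and Mcm4 had no window.

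Over windows from 250 bases before to 50 bases after each start, which were found for 76 of the 94 members, an E2F motif was present in 9 of 21 replication members (42.9%), 2 of 29 mitosis members (6.90%) and 3.64% of all 16047 genes with a window. A gene was counted if any of its windows held the letters. Among all list genes with a window, the share was 37.1% for replication and 12.1% for mitosis. A CHR motif was present in 19.0% of replication members, 79.3% of mitosis members and 18.3% of all genes. CCAAT boxes were present in 71.4% of replication members, 72.4% of mitosis members and 41.5% of all genes. A CHR motif and a CCAAT box in the same window were found in 14.3% of replication members and 65.5% of mitosis members, against 7.37% of all genes. One of the CHR words, TTCGAA, reads the same on both strands. A match is a description of letters and not of binding.

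**Figure D3:**
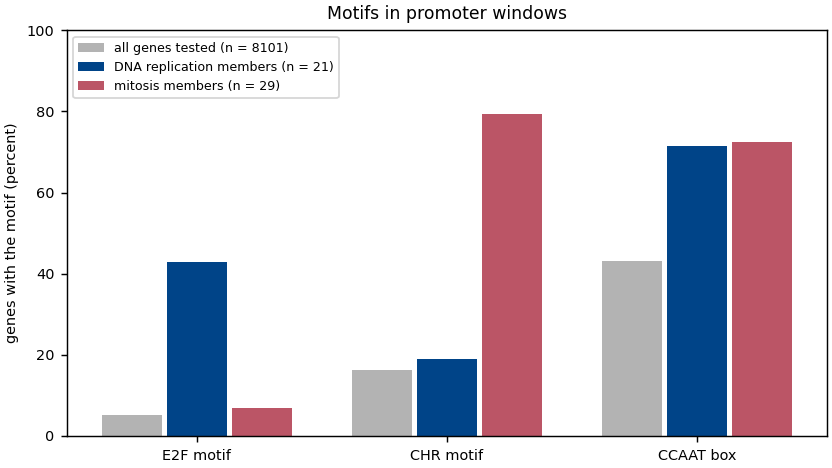
Percent of genes whose promoter window holds an E2F motif, a CHR motif or a CCAAT box, for all genes compared that have a window (grey, 8101 genes), DNA replication members (blue, 21 genes) and mitosis members (red, 29 genes). E2F motifs are most frequent in replication members at 42.9% and CHR motifs in mitosis members at 79.3%, while CCAAT boxes are frequent in both.

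In mitosis, the members past 1.5-fold higher were Cdc20, Ncapd2, Cenpa and Tpx2, which act in anaphase, chromosome condensation, the centromere and the spindle. Cdc20 activates the anaphase-promoting complex, the ligase that ends mitosis by destroying securin and cyclin B, and had the highest log2 ratio of the 92 members, 1.41, at 0.145 CP10k in CM and 0.550 CP10k in TSF. It was detected in 7 of 29 CM cells (24.1%, interval 10.3 to 43.5%) and 46 of 139 TSF cells (33.1%, interval 25.4 to 41.6%), and TSF cells with a UMI also held more, 0.601 CP10k in CM and 1.66 CP10k in TSF. Ube2c, the ubiquitin-conjugating enzyme of the same complex, was at 1.51 CP10k in CM and 1.98 CP10k in TSF (log2 ratio 0.37), in 10 of 29 CM cells (34.5%, interval 17.9 to 54.3%) and 63 of 139 TSF cells (45.3%, interval 36.9 to 54.0%). The level per positive Ube2c cell was alike in both libraries, 4.38 CP10k in CM and 4.38 CP10k in TSF, so the difference lay in the share of cells. Neither of these genes stood for the complex as a whole: its 19 list genes had a median of 0.021, and the unflagged core subunits Cdc23 and Cdc27 were at 0.317 CP10k in CM and 0.101 CP10k in TSF and at 0.706 CP10k in CM and 0.329 CP10k in TSF.

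Promoters of 3 mitosis members are shown for their CHR and CCAAT letters, marked in the same way and over the same 200 bases.
Cdc20, chr4:118437344-118437543, minus strand: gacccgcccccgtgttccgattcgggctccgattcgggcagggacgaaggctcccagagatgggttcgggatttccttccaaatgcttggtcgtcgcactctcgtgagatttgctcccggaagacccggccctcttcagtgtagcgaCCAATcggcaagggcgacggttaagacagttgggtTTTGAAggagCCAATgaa
Ube2c, chr2:164769729-164769928, plus strand: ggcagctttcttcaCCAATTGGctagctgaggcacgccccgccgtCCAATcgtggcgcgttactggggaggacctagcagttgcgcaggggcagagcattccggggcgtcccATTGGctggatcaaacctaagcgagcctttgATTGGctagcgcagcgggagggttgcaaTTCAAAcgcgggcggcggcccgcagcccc
Top2a, chr11:99024190-99024389, minus strand: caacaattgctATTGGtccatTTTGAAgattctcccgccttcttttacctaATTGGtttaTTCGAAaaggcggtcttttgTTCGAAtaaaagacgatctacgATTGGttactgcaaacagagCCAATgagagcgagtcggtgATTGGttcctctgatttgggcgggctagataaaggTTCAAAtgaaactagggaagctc
All 3 hold CHR letters together with 2 or more CCAAT boxes, and none of the 3 stretches holds an E2F motif. The same promoter layout was found in members with unlike values, since Cdc20 was at a log2 ratio of 1.41, Ube2c at 0.37 and Top2a at -0.21.

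At the centromere and kinetochore, 6 of 9 members were above 0 by level and 8 of 9 by share of cells. Over all 42 genes of the list, flagged or not, 18 were above 0 by level, with a median of -0.061. Of these 42, 25 had a UMI in a larger share of TSF cells. Cenpa, the centromeric histone H3 variant, was at 0.951 CP10k in CM and 1.59 CP10k in TSF (log2 ratio 0.69), in 12 of 29 CM cells (41.4%, interval 23.5 to 61.1%) and 62 of 139 TSF cells (44.6%, interval 36.2 to 53.3%). Its level per positive cell was 2.30 CP10k in CM and 3.57 CP10k in TSF. Nuf2, of the NDC80 complex that binds microtubules, was at 0.0925 CP10k in CM and 0.151 CP10k in TSF (log2 ratio 0.38), and its partner Ndc80 at 0.193 CP10k in CM and 0.171 CP10k in TSF (log2 ratio -0.11). The checkpoint kinases Ttk and Bub1 were at 0.0817 CP10k in CM and 0.117 CP10k in TSF and at 0.160 CP10k in CM and 0.170 CP10k in TSF. Birc5 (survivin) and Cdca8 (borealin) belong to the chromosomal passenger complex. Birc5 was at 1.71 CP10k in CM and 1.78 CP10k in TSF (log2 ratio 0.057), and Cdca8 at 0.494 CP10k in CM and 0.520 CP10k in TSF (log2 ratio 0.061) with a UMI in 31.0% of CM and 46.0% of TSF cells. Cenpe, a kinetochore motor, had the lowest log2 ratio of the 9 members, -0.21, at 0.705 CP10k in CM and 0.598 CP10k in TSF. Cenpf was level at 1.36 CP10k in CM and 1.35 CP10k in TSF. Cenpf changed sign under either other scaling and Ndc80 under centring. With 1 UMI of the shallowest CM cell taken off, 8 of 9 were above 0, with Cenpe at 0.63, Cenpf at 0.39 and Cdca8 at 1.37.

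With CM means as deposited, the 6 flagged mitotic kinases and cyclins stayed close together. Cdk1, the kinase that drives entry into mitosis, was at 1.22 CP10k in CM and 1.25 CP10k in TSF (log2 ratio 0.040), in 19 of 29 CM cells (65.5%) and 82 of 139 TSF cells (59.0%). Ccnb2, a B-type cyclin, was at 1.16 CP10k in CM and 1.05 CP10k in TSF (log2 ratio -0.14) and in 44.8% of CM and 45.3% of TSF cells. The kinase gene Aurka was at 0.187 CP10k in CM and 0.197 CP10k in TSF (log2 ratio 0.050), in 5 of 29 CM cells (17.2%) and 41 of 139 TSF cells (29.5%). Aurkb, the kinase of the passenger complex, was at 0.387 CP10k in CM and 0.285 CP10k in TSF (log2 ratio -0.34), yet was seen in 6 of 29 CM cells (20.7%) and 43 of 139 TSF cells (30.9%). Nek2 and Cdc25c had log2 ratios of -0.16 and -0.23. None of the 6 flagged members was past 1.5-fold with CM means as deposited. With 1 UMI of the shallowest CM cell taken off, 2 of 6 were below 0, and Aurkb turned to 1.54, Ccnb2 to 0.34 and Cdk1 to 0.49. Among the 9 unflagged genes of this role, Ccnb1 was at 0.138 CP10k in CM and 0.367 CP10k in TSF (log2 ratio 0.97) and Plk1 at 0.130 CP10k in CM and 0.261 CP10k in TSF (log2 ratio 0.65), while Cdc25b was at 0.262 CP10k in CM and 0.0931 CP10k in TSF (log2 ratio -0.91) and Ccnf at 0.274 CP10k in CM and 0.135 CP10k in TSF (log2 ratio -0.67).

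Spindle and cytokinesis members numbered 14, with 9 above and 5 below 0. Over all 29 genes of the list, flagged or not, 12 were above 0, with a median of -0.10. Tpx2, which activates Aurora A on the spindle, was at 0.322 CP10k in CM and 0.558 CP10k in TSF (log2 ratio 0.64), in 8 of 29 CM cells (27.6%, interval 12.7 to 47.2%) and 52 of 139 TSF cells (37.4%, interval 29.4 to 46.0%). Kif11, the motor that pushes spindle poles apart, was the mitosis member past 1.5-fold lower, at 0.456 CP10k in CM and 0.240 CP10k in TSF (log2 ratio -0.71), in 8 of 29 CM cells (27.6%) and 33 of 139 TSF cells (23.7%). Anln (anillin), of the cleavage furrow, was at 1.34 CP10k in CM and 0.958 CP10k in TSF (log2 ratio -0.45). Kif20b and Ckap2 were at 0.201 CP10k in CM and 0.309 CP10k in TSF and at 0.135 CP10k in CM and 0.208 CP10k in TSF, and Hmmr and Tacc3 had log2 ratios of 0.16 and 0.19. Among 3 genes of chromosome structure, Ncapd2, a condensin subunit, was at 0.0590 CP10k in CM and 0.185 CP10k in TSF (log2 ratio 0.84), in 5 of 29 CM cells (17.2%, interval 5.85 to 35.8%) and 41 of 139 TSF cells (29.5%, interval 22.1 to 37.8%). The condensin core gene Smc4 was at 1.95 CP10k in CM and 1.88 CP10k in TSF (log2 ratio -0.051) and changed sign under either other scaling. Top2a, the topoisomerase that untangles chromosomes, was at 2.88 CP10k in CM and 2.48 CP10k in TSF (log2 ratio -0.21), in 58.6% of CM and 58.3% of TSF cells. Over all 21 genes of chromosome structure, flagged or not, 16 were below 0, with a median of -0.21.

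**Figure D4:**
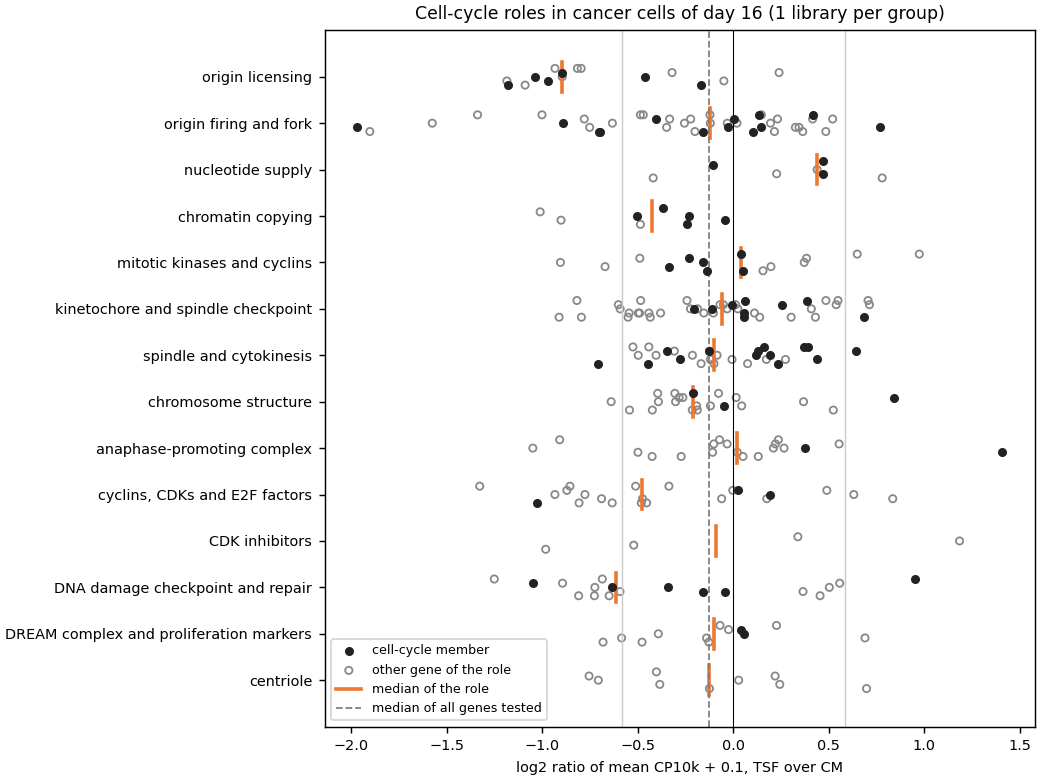
Log2 ratio of mean CP10k plus 0.1, TSF over CM, for the genes of 14 roles seen in at least 10% of cancer cells, as filled dots for flagged members and open dots for other genes of the role. Orange lines mark role medians, the dashed line the median of all genes at -0.13, and thin grey lines 1.5-fold. With CM means as deposited, origin licensing lies left with a median of -0.90 and nucleotide supply right at 0.44. The medians of the mitosis roles run from -0.21 (chromosome structure) to 0.040 (mitotic kinases and cyclins).

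Members that govern G1 to S passage split. E2f8, an atypical E2F that represses S phase genes, was at 0.580 CP10k in CM and 0.233 CP10k in TSF (log2 ratio -1.03), in 15 of 29 CM cells (51.7%, interval 32.5 to 70.6%) and 50 of 139 TSF cells (36.0%, interval 28.0 to 44.5%). The CDK-binding proteins Cks1b and Cks2 were at 3.09 CP10k in CM and 3.54 CP10k in TSF (log2 ratio 0.19) and at 1.08 CP10k in CM and 1.10 CP10k in TSF (log2 ratio 0.022). The unflagged genes of the role were mostly lower, 17 of 23, with a median of -0.48. Ccnd1, cyclin D1, was at 17.1 CP10k in CM and 9.71 CP10k in TSF (log2 ratio -0.81), while Ccnd2 was at 0.164 CP10k in CM and 0.370 CP10k in TSF and Ccnd3 at 0.233 CP10k in CM and 0.416 CP10k in TSF. E2f1 was at 0.309 CP10k in CM and 0.126 CP10k in TSF (log2 ratio -0.86) and E2f7, the other atypical E2F, at 0.266 CP10k in CM and 0.0460 CP10k in TSF (log2 ratio -1.33). Of the CDK inhibitors, Cdkn1a (p21) was at 0.793 CP10k in CM and 0.352 CP10k in TSF, in 19 of 29 CM cells (65.5%, interval 45.7 to 82.1%) and 45 of 139 TSF cells (32.4%, interval 24.7 to 40.8%). Cdkn2c (p18) was at 0.681 CP10k in CM and 1.68 CP10k in TSF (log2 ratio 1.18), in 17 of 29 CM cells (58.6%, interval 38.9 to 76.5%) and 125 of 139 TSF cells (89.9%, interval 83.7 to 94.4%). Here, the p21 gene stood lower and the p18 gene higher in TSF, each with intervals that did not overlap.

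Repair members lay below 0 by level in 5 of 6, as did 6095 of all 10201 genes compared. In share of cells with a UMI, 4 of the 6 were higher in TSF, with a median difference of 2.54 percentage points. Exo1, an exonuclease, was at 0.133 CP10k in CM and 0.0498 CP10k in TSF (log2 ratio -0.64), with only 10.3% of CM and 13.7% of TSF cells positive. Blm and Usp1 had log2 ratios of -0.34 and -0.16. The 5 of 6 became 4 of 6 under either other scaling and 3 of 6 with 1 UMI of the shallowest CM cell taken off. The unflagged checkpoint and repair genes Chek1 and Brca1 were at 0.398 CP10k in CM and 0.184 CP10k in TSF and at 0.233 CP10k in CM and 0.0793 CP10k in TSF. Over the 18 genes of this role that were compared, flagged or not, 13 were below 0 by level and 9 were lower by share.

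With CM means as deposited, markers used to tell dividing from resting cells were near equal. Mki67, the antigen of proliferating cells, was at 0.903 CP10k in CM and 0.930 CP10k in TSF (log2 ratio 0.038), in 11 of 29 CM cells (37.9%, interval 20.7 to 57.7%) and 59 of 139 TSF cells (42.4%, interval 34.1 to 51.1%). Hmgb2, a chromatin protein, was at 4.87 CP10k in CM and 5.07 CP10k in TSF (log2 ratio 0.056), in 26 of 29 CM cells (89.7%) and 119 of 139 TSF cells (85.6%). Neither gene was past 1.5-fold with CM means as deposited, and the intervals of the shares overlapped. With 1 UMI of the shallowest CM cell taken off, Mki67 turned to 0.67, past 1.5-fold higher, and Hmgb2 to 0.16.

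Of the 21 members without a role in the lists, 20 could be compared and 11 were below 0. Cdca3, a mitotic entry factor, was at 0.0889 CP10k in CM and 0.304 CP10k in TSF (log2 ratio 1.10), in 6 of 29 CM cells (20.7%, interval 7.99 to 39.7%) and 48 of 139 TSF cells (34.5%, interval 26.7 to 43.1%). Casp8ap2 was at 0.722 CP10k in CM and 0.372 CP10k in TSF (log2 ratio -0.80) and Brip1, a helicase partner of BRCA1, at 0.148 CP10k in CM and 0.0622 CP10k in TSF. The tubulin gene Tubb4b was at 3.69 CP10k in CM and 3.88 CP10k in TSF (log2 ratio 0.071). The remaining members of this class had log2 ratios between -0.53 (Wdr76) and 0.30 (Gas2l3).

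**Figure D5:**
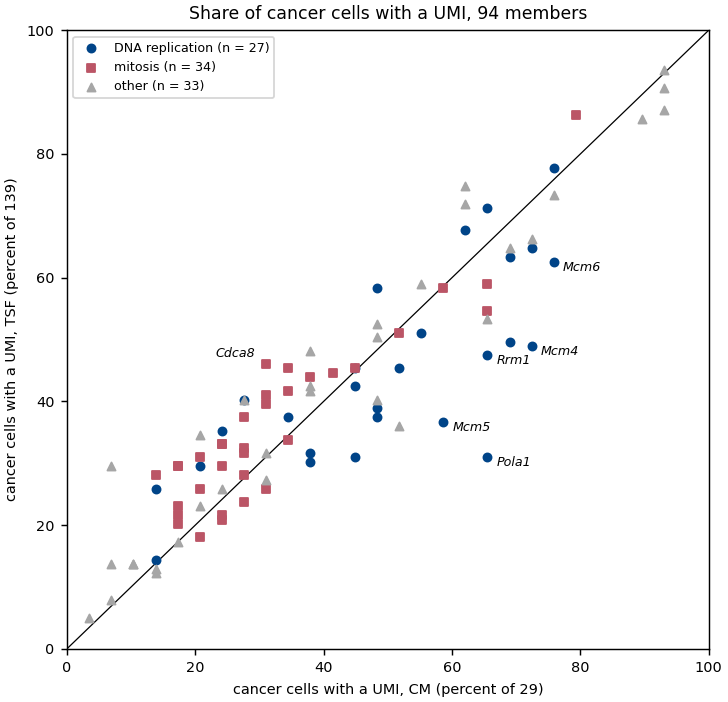
Percent of cancer cells with a UMI of each of the 94 members in CM (horizontal axis, 29 cells) and TSF (vertical axis, 139 cells), with DNA replication members as blue circles, mitosis members as red squares and others as grey triangles. Points on the line have equal shares. Of the replication members 16 of 27 lie below it, led by Pola1, and of the mitosis members 24 of 34 lie above.

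Level and share did not always point the same way. Both were lower in TSF for 28 of 92 members and both higher for 32, but 22 had a lower level with a larger share of cells, and 10 the reverse. For replication members these counts were 14, 6, 5 and 2 of 27, and for mitosis members 6, 16, 8 and 4 of 34. A lower level with a larger share means fewer CP10k per positive cell, as for Aurkb at 1.87 CP10k in CM and 0.922 CP10k in TSF and Usp1 at 1.40 CP10k in CM and 1.07 CP10k in TSF. With 1 UMI of the shallowest CM cell taken off, the log2 ratios of level would be above 0, at 1.54 for Aurkb and 0.50 for Usp1. Over all members the median log2 ratio per positive cell was -0.16, against -0.16 for all genes.

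Levels in CM rest on few cells, and the shallowest of them weighed heavily. A UMI in the next shallowest CM cell, at 5962 UMIs, adds 0.0578 CP10k to the mean, and one in the shallowest TSF cell, at 909 UMIs, adds 0.0791. The files used here do not name the 550 genes of the shallowest CM cell. Among the members 53 had such a mean, and for 39 it was too low for that cell to have contributed. If the cell had held 1 UMI of each of the 53, members below 0 would number 22 of 92 in place of 50, the median over members would be 0.35 in place of -0.048, and 33 members in place of 7 would be past 1.5-fold higher. Of the 14 members past 1.5-fold lower, 5 would still be so, namely Pola1 (-1.38), Mcm4 (-0.76), Mcm6 (-0.76), Exo1 and Brip1. The CM means of Pola1, Mcm4 and Mcm6 could hold more than 1 UMI of that cell, and more were not taken off. Mcm5 would stand at -0.20, Mcm2 at -0.020, Dtl at 0.73, Kif11 at 0.75 and E2f8 at 0.036. Of the 7 members past 1.5-fold higher, 6 had a CM mean too low to hold 1 UMI of that cell, the exception being Cenpa. Shares of cells with a UMI do not depend on this weight, and by share 12 of the 14 lower members were lower and 7 of the 7 higher members were higher. Share is a part of the mean level, so the measures are not independent, and shares also depend on depth. Of all genes compared, 4534 were lower by both measures and 1559 were lower by level with a larger share. Another 3453 were higher by both, and 645 were higher by level with a smaller share.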

How the data were processed

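Lungs of 3 mice per group were pooled into 5' 10x Genomics single-cell libraries. The authors used Cell Ranger to map reads to GRCm38.p6 (mm10) plus the CD90.1 sequence, corrected UMI counts for ambient RNA, removed cells with over 10% mitochondrial UMIs, under 800 UMIs or under 200 genes, and assigned cell types by hand from clusters built without cell-cycle genes. Seurat 4.1.0 is among the tools of the submitters' processing notes, and the study made the clusters with Monocle3-alpha. Values used were the deposited UMI counts per cell, the deposited mean CP10k per gene, which averages all cancer cells of a library, and the deposited number of cells with a UMI and their percent. Doublets were treated as the authors left them. The fold changes, p-values and enrichment scores that the authors deposited were not used. Of 5 libraries, the gene table covers the 2 of day 16, and 2 more libraries in the cell table match no sample here and were not used.

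Ratios are log2((TSF + 0.1)/(CM + 0.1)) of mean CP10k, for genes detected in 10% or more of cancer cells in CM or in TSF. With 1 library per group, a gene is counted as lower or higher past 1.5-fold, with no p-value. Shares carry exact Clopper-Pearson 95% intervals, which cover counting error over cells only. Shares were not thinned to equal depth, and shares in cell types that should lack a gene were not analysed here, since no single-cell matrix was used. The code of the list summaries was checked on simulated shifts without noise, which does not test them at these numbers of cells. Gene lists came from textbook roles, and the members and lists were chosen with earlier results of these data known. Genes named were the main genes of each role, the 8 highest and 8 lowest log2 ratios, the extremes of each role and the 5 highest levels among flagged genes. A few members and list genes that are counted are not reported here by name. Other genes, all without the flag or within small groups, were named after their values were seen. Promoter windows came from RefSeq on GRCm38.p6, the files' build. Alternatives covered the pseudocount, the detection filter, scaling without ribosomal protein genes (Rpl and Rps), centring, shares or levels per positive cell, list membership, the fold limit and the member with the highest level. Tools were scipy 1.17.1, pandas 2.3.3, numpy 2.4.6 and matplotlib 3.10.9 under Python 3.11.15.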

Additional observations from a re-analysis of the deposited data

How the results depend on the processing

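The lower median of DNA replication than of mitosis members kept its direction under 9 of 10 alternatives, but not all of these could change it. Centring on all genes shifts both medians alike, and the filter of at least 1 cancer cell kept the same members. Both returned -0.29. The difference ran from -0.36 with a pseudocount of 0.01 to -0.10 with a pseudocount of 1, and was -0.15 with unflagged list genes included. The deposited gene sets, not among these 10, lay close together. Their medians were -0.16 over KEGG DNA replication, -0.13 over Reactome M phase and -0.15 over Reactome mitotic prometaphase. With 1 UMI of the shallowest CM cell taken off (chosen after seeing the data), the difference was 0.030, with medians of 0.42 for replication, 0.39 for mitosis and 0.35 for all members. Otherwise the replication median stayed below 0, at -0.078 with a pseudocount of 1, -0.11 when centred on all genes and -0.12 on shares of cells. The mitosis median lay near 0 and took either sign: 0.024 with a pseudocount of 1, 0.14 without Rpl and Rps genes, 0.18 when centred, 0.23 on shares of cells, but -0.073 per positive cell, -0.093 with unflagged genes, -0.13 over Reactome M phase and -0.15 over Reactome mitotic prometaphase. So did the median of all members: -0.020 with a pseudocount of 1, 0.034 without Rpl and Rps genes, 0.077 when centred, 0.061 on shares, -0.16 per positive cell and -0.13 over all list genes. Rpl and Rps genes held 18.6% of CP10k in CM and 23.9% in TSF. The 14 members past 1.5-fold lower became 3 with a pseudocount of 1, 5 at 2-fold and 5 with that UMI taken off. The 7 higher became 0, 2 and 33 in the same order, where a pseudocount of 1 is above the level of most members. Other alternatives moved these results by less than 1.5 times. No paired analysis was possible because each group held 1 library. With 29 CM cells, wide intervals of the shares limit what can be told for members seen in few cells.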
